A study of Homo sapiens with 10 samples.

Results

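The genes that write, read and erase DNA methylation were examined in HEK-293, an established line from human embryonic kidney, after siRNA silencing of 1 of 2 long non-coding RNAs. They were taken by platform gene symbol and comprised 9 genes of 18404 measured, with 11 of 32321 probe sets: UHRF1, UHRF2, DNMT1, DNMT3A, DNMT3B, TET1, TET2, TET3 and MBD2. The set is defined by symbol, not by a measured value, but it was chosen with earlier results of these data known. Total RNA was taken 48 hours after transient transfection, and 5 groups of 2 arrays were hybridised. At 10 nM, cells received the control siRNA, LOC440173 siRNA 1 or LOC440173 siRNA 2. At 100 nM, they received the control siRNA or a single PAXIP1-AS1 siRNA. All cells received the transfection reagent RNAiMax, and the control duplex has an undisclosed sequence, per the labels. The labels call the arrays biological replicates without naming separate cultures, so p-values measure the spread between these arrays.

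DNA methylation in mammals is copied to the new strand after replication by the maintenance enzyme DNMT1, which UHRF1 brings to hemimethylated CpG sites. DNMT3A and DNMT3B place new marks, the TET enzymes oxidise 5-methylcytosine towards its removal, and MBD2 binds methylated CpG sites and recruits the NuRD corepressor complex. UHRF2 is a relative of UHRF1 that also binds modified cytosine.

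All values below are log2 levels as deposited or differences of group means on that scale. A gene is called higher or lower where its Benjamini-Hochberg adjusted p in a limma fit of all genes is under 0.05. Array medians lay between 7.06 and 7.12, and replicate arrays correlated at 0.994 to 0.997 across all probe sets. LINC02893, the current name of LOC440173, fell to 51.4% of its control with siRNA 1 and to 27.0% with siRNA 2 (log2 differences of -0.96 and -1.89, adjusted p = 0.000305 and 1.38e-05 by limma). PAXIP1-AS1 had 0 listed probe sets, so its silencing was not analysed here. Of 9 markers of the line, 7 lay above the median gene level of 7.66 and PAX2 and KRT8 below it, while 0 of 5 hepatocyte, 0 of 4 blood, 0 of 5 keratinocyte, 0 of 5 fibroblast and endothelium and 0 of 4 kidney tubule markers lay above it.

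The 2 siRNAs against LOC440173 differed from each other in 6 of the 9 methylation genes. With siRNA 1, 5 of 9 were called, UHRF2 higher and DNMT3B, TET2, TET3 and MBD2 lower, beside 28.8% of all genes (12.1% higher and 16.7% lower). With siRNA 2, 5 of 9 were called, TET1 and TET2 higher and UHRF1, DNMT1 and MBD2 lower, beside 30.0% of all genes (12.5% higher and 17.4% lower). Both comparisons share the control arrays at 10 nM. Between the siRNAs themselves, 6 of 9 differed beside 37.1% of all genes: TET1, TET2 and DNMT3B were higher and UHRF1, UHRF2 and DNMT1 lower with siRNA 2. With the PAXIP1-AS1 siRNA, 0 of 9 were called by limma beside 4.62% of all genes (2.86% higher and 1.76% lower). In that comparison 1 member, MBD2, had an unadjusted p under 0.05, beside 3357 of 18404 genes. The control doses gave 0 calls beside 0% of all genes, with 0 members and 692 genes at an unadjusted p under 0.05. The members' median difference was -0.12 with siRNA 1, -0.06 with siRNA 2 and 0.03 with the PAXIP1-AS1 siRNA, beside 0.05, 0.01 and -0.01 for all genes. The arrays of the compared groups did not overlap for 8 members with siRNA 1 (64.9% of all genes), 7 with siRNA 2 (55.3%), 8 between the siRNAs (66.4%), 4 with the PAXIP1-AS1 siRNA (51.3%) and 5 between the control doses (25.8%), so a lack of overlap alone was common. An exact permutation test of 2 arrays against 2 cannot go below p = 0.333, so every call rests on the spread shared by the 5 groups. The count with siRNA 1 fell to 3 without control 10 nM replicate 2 or siRNA 1 replicate 1 and to 2 without siRNA 1 replicate 2, whereas the count with siRNA 2 was 5 without any single array.

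**Figure D1:**
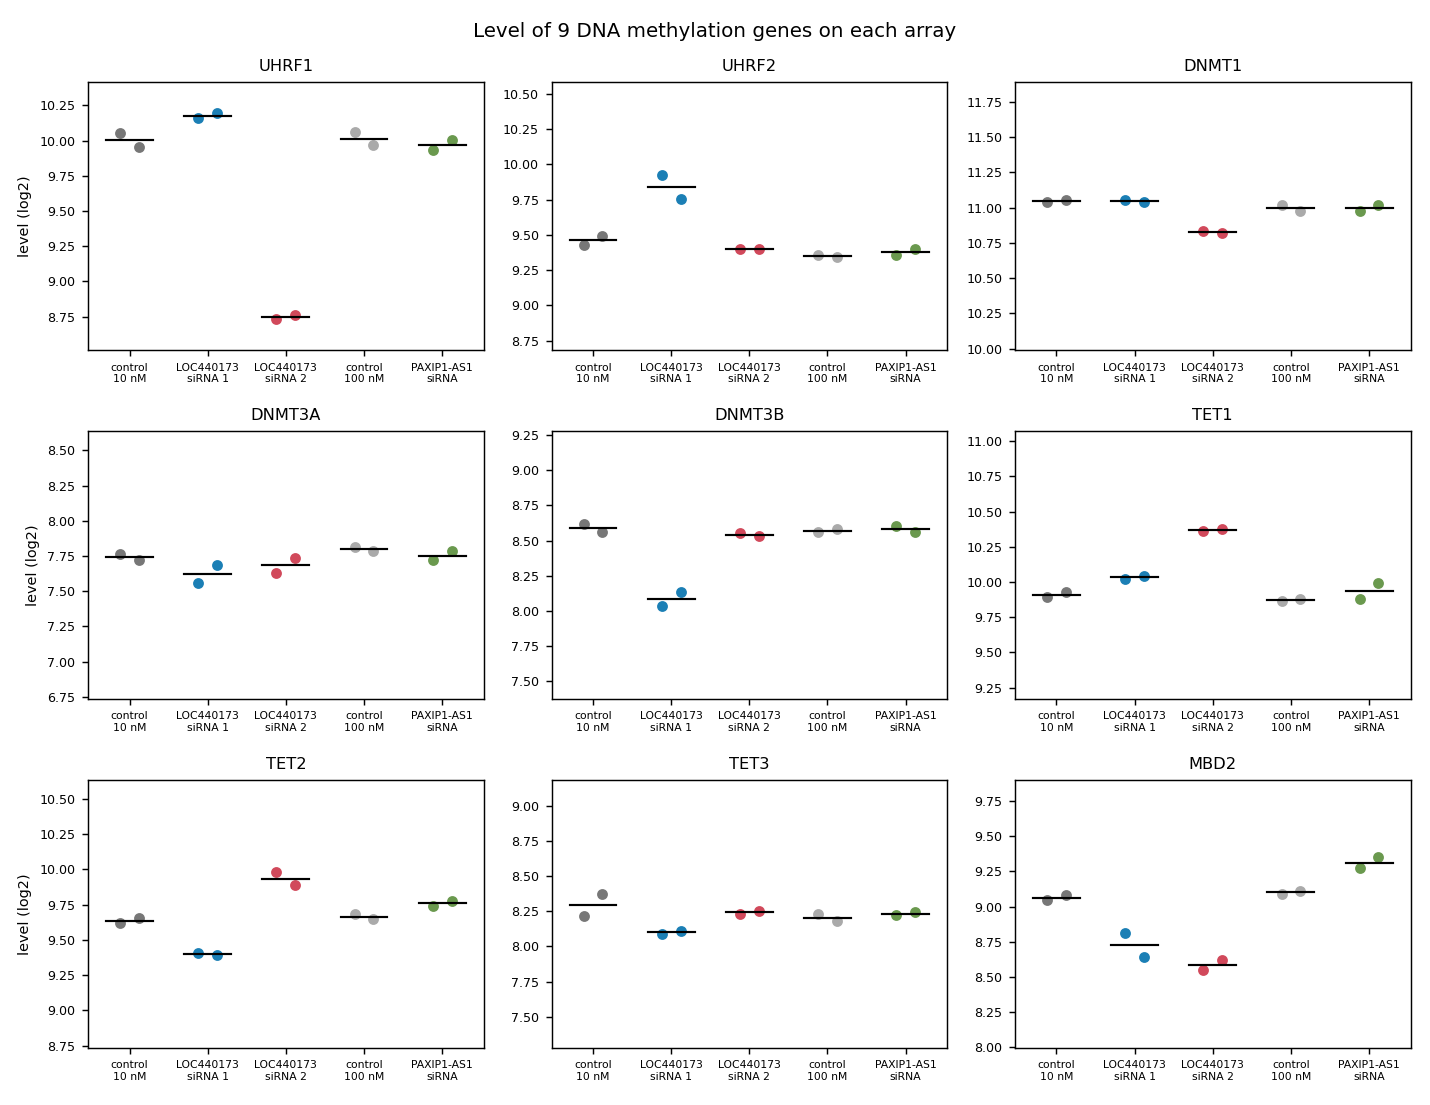
Log2 level of each gene (brightest probe set) on each of the 10 arrays, by siRNA group; points are arrays and bars are means of 2, and the panels span the same range but have different centres. UHRF1 drops to 8.73 and 8.76 with LOC440173 siRNA 2, DNMT3B to 8.03 and 8.14 with siRNA 1, and MBD2 lies lowest with both.

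Maintenance was first examined through UHRF1, the reader of hemimethylated DNA. UHRF1 stood at 10.05 and 9.95 (log2) in the control at 10 nM, 10.16 and 10.20 with siRNA 1, 8.73 and 8.76 with siRNA 2, 10.06 and 9.97 in the control at 100 nM, and 9.93 and 10.00 with the PAXIP1-AS1 siRNA. Both arrays of siRNA 2 lay more than a log2 unit under every other array, and those 8 spanned a narrow range. UHRF1 thus fell to 41.9% of its control with siRNA 2 (-1.26 ± 0.060, SE, n = 2 arrays a group, adjusted p = 9.78e-06 by limma), lower than all but 0.489% of genes. This call held under each of 19 alternatives, including a minimum of 1.5-fold that no other methylation gene passed against a control, but the difference shrank to -0.55 (adjusted p = 0.000397 by limma) where the gene's 2 probe sets were averaged. With siRNA 1, UHRF1 was 0.18 above its control (95% interval 0.04 to 0.31) and missed the threshold (adjusted p = 0.0619, limma). It was called without control 10 nM replicate 1 (0.23, adjusted p = 0.0449) and under 3 other settings. With the PAXIP1-AS1 siRNA the difference was -0.05, with an interval of -0.18 to 0.09. The siRNA 2 effect minus the PAXIP1-AS1 effect was -1.21 ± 0.085 (adjusted p = 0.000146 by limma). In bulk RNA, fewer cells in the cycle stage that expresses a gene and less RNA per cell cannot be told apart.

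DNMT1, the maintenance methyltransferase, was also lower with siRNA 2, by less than UHRF1 (-0.22 against -1.26). Its arrays read 11.04 and 11.06 in the control at 10 nM, 11.06 and 11.04 with siRNA 1, 10.83 and 10.82 with siRNA 2, 11.02 and 10.98 in the control at 100 nM, and 10.98 and 11.02 with the PAXIP1-AS1 siRNA. The siRNA 2 arrays were the lowest pair and overlapped no other group. DNMT1 fell to 85.8% of control with siRNA 2 (-0.22 ± 0.047, adjusted p = 0.00836 by limma), a call lost in a fit of its 2 groups alone (adjusted p = 0.1). With siRNA 1 its interval ran from -0.11 to 0.11. Its siRNA 2 effect did not pass the threshold against the PAXIP1-AS1 effect (-0.22 ± 0.066, adjusted p = 0.0544 by limma). The adjusted p was 0.0494 with the replicate block, 0.0102 with dim genes left out and 0.0043 with the intensity trend and robust prior.

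UHRF2 was instead higher with siRNA 1. It read 9.43 and 9.49 in the control at 10 nM, 9.92 and 9.75 with siRNA 1, 9.40 and 9.40 with siRNA 2, 9.36 and 9.34 in the control at 100 nM, and 9.36 and 9.40 with the PAXIP1-AS1 siRNA. Both siRNA 1 arrays were above the other 8. UHRF2 rose to 129.9% of control with siRNA 1 (0.38 ± 0.064, adjusted p = 0.00339 by limma) and differed by -0.06 with siRNA 2 (95% interval -0.21 to 0.09). UHRF1 and UHRF2 were therefore each called against control with a different siRNA, and both were lower with siRNA 2 than with siRNA 1 (-1.43 and -0.44, adjusted p = 3.15e-06 and 0.000976 by limma).

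The promoter starts of these 3 genes are shown because UHRF1 and DNMT1 were lower with siRNA 2 and UHRF2 was not. Also lower with siRNA 2 were 16 of 30 measured S phase genes and E2F targets, beside 17.4% of all genes. Windows of 275 bases, 250 before and 25 after the start, are from RefSeq (GRCh38.p14), 5′ to 3′ on the gene's strand, for the first listed start of each gene. Capitals mark exact matches, on either strand, to the E2F spellings TTTCCCGC, TTTCGCGC, TTTGCCGC and TTTGGCGC, or to CCAAT, the box bound by NF-Y; no marked matches overlapped.
UHRF1, chr19:4909251-4909525 (plus strand): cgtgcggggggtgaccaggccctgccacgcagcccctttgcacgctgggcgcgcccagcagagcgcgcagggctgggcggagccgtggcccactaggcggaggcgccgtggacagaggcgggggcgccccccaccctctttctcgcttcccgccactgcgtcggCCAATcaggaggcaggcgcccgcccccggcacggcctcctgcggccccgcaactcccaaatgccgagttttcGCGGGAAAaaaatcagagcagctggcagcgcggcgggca
DNMT1, chr19:10194929-10195203 (minus strand): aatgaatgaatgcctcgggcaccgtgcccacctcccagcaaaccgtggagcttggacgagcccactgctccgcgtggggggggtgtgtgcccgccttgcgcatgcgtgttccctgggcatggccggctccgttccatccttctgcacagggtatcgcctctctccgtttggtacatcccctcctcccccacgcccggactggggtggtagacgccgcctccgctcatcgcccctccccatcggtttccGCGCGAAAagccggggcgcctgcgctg
UHRF2, chr9:6412949-6413223 (plus strand): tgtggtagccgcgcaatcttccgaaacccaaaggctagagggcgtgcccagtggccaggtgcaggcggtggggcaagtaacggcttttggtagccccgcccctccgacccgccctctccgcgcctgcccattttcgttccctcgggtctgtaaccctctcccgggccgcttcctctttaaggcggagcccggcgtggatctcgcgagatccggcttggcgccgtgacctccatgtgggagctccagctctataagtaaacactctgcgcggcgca
The UHRF1 window held TTTCCCGC on the other strand at -14 to -7 from the start and CCAAT at -86 to -82. The DNMT1 window held TTTCGCGC on the other strand from -2 to 6, across the start, and the UHRF2 window held neither motif. The window of MBD2, which was also called lower with siRNA 2 and by more than DNMT1, held neither motif as well. An E2F spelling was found in 2 of 3 UHRF1 windows, in the DNMT1 window and in 0 of 16 windows of the other members. Some of those 16 overlap, as among the 6 of DNMT3A. The 1 DNMT3B window began at base 32779602 of chromosome 20, inside the gene, whose annotated start is base 32762385. Among all 34943 promoter windows, 3.06% held an E2F spelling and 33.4% held CCAAT. These matches are descriptions of the letters and no binding was measured.

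De novo methylation was measured through DNMT3A and DNMT3B. DNMT3B read 8.62 and 8.56 in the control at 10 nM, 8.03 and 8.14 with siRNA 1, 8.55 and 8.53 with siRNA 2, 8.56 and 8.58 in the control at 100 nM, and 8.61 and 8.56 with the PAXIP1-AS1 siRNA. Only the siRNA 1 arrays were set apart, below all 8 others. DNMT3B fell to 70.5% of control with siRNA 1 (-0.50 ± 0.055, adjusted p = 0.000388 by limma) and kept this call without any single array. With siRNA 2 the interval was -0.17 to 0.08 around -0.05, and the siRNAs differed from each other by 0.46 (adjusted p = 0.000322). DNMT3A was steadier: its 10 arrays lay between 7.56 and 7.82. Its differences were -0.12 with siRNA 1 (95% interval -0.27 to 0.03, adjusted p = 0.2 by limma), -0.06 with siRNA 2 and -0.05 with the PAXIP1-AS1 siRNA, none called under any alternative run.

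**Figure D2:**
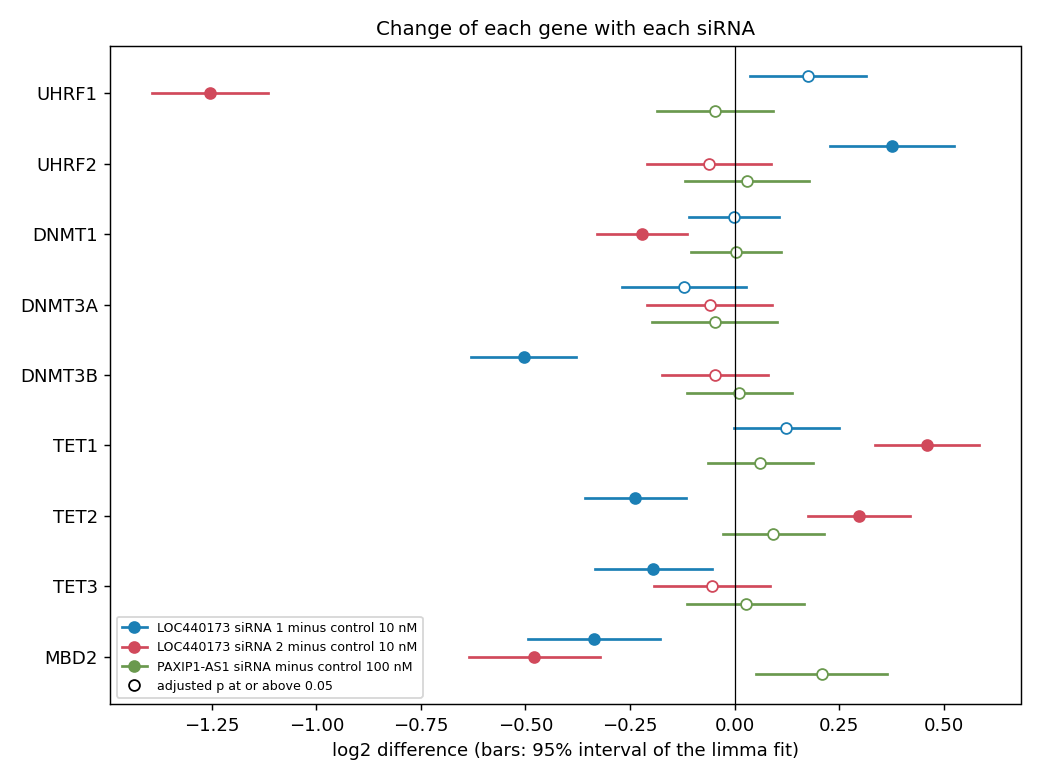
Log2 difference of each gene's group means for the 3 silencing comparisons, with the 95% interval of the limma fit; filled symbols have an adjusted p under 0.05. UHRF1 with siRNA 2 lies at -1.26, DNMT3B with siRNA 1 at -0.50, and every PAXIP1-AS1 symbol is open.

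Among the erasers, TET1 and TET2 were higher with siRNA 2, and TET2 and TET3 lower with siRNA 1. TET1 read 9.89 and 9.93 in the control at 10 nM, 10.02 and 10.04 with siRNA 1, 10.36 and 10.38 with siRNA 2, 9.86 and 9.88 in the control at 100 nM, and 9.88 and 9.99 with the PAXIP1-AS1 siRNA. Its siRNA 2 arrays were the highest pair. TET1 rose to 137.6% of control with siRNA 2 (0.46 ± 0.054, adjusted p = 0.000474 by limma), and its value of 0.12 with siRNA 1 was not called (adjusted p = 0.127). TET2 moved in both directions. It read 9.62 and 9.66 in the control at 10 nM, 9.41 and 9.39 with siRNA 1, 9.98 and 9.89 with siRNA 2, 9.68 and 9.65 in the control at 100 nM, and 9.74 and 9.78 with the PAXIP1-AS1 siRNA. The siRNA 1 pair was lowest and the siRNA 2 pair highest, with no overlap. TET2 fell by 0.24 on the log2 scale with siRNA 1 (adjusted p = 0.0112) and rose by 0.30 with siRNA 2 (adjusted p = 0.00358, both by limma), so that it was 144.9% as high with siRNA 2 as with siRNA 1 (0.54, adjusted p = 0.000115). The siRNA 1 call was lost without control 10 nM replicate 2 (-0.22, adjusted p = 0.0541), siRNA 1 replicate 1 (-0.25, 0.0531) or siRNA 1 replicate 2 (-0.23, 0.0676). Both calls against control were lost in fits of the 2 groups alone (adjusted p = 0.0623 and 0.0626).

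TET3 read 8.22 and 8.37 in the control at 10 nM, 8.09 and 8.11 with siRNA 1, 8.23 and 8.25 with siRNA 2, 8.23 and 8.18 in the control at 100 nM, and 8.22 and 8.24 with the PAXIP1-AS1 siRNA. Its siRNA 1 arrays were the lowest, but its control pair at 10 nM was the most spread of any group. TET3 fell to 87.4% of control with siRNA 1 (-0.19 ± 0.060, adjusted p = 0.0449 by limma), just under the threshold. The call was lost without any single array other than control 10 nM replicate 1. Without control 10 nM replicate 2 the difference was -0.12 (adjusted p = 0.208), without siRNA 1 replicate 1 or 2 it had an adjusted p of 0.173 or 0.13, and without an array of another group its adjusted p was 0.0604 to 0.0744. TET3 differed by -0.05 with siRNA 2 (adjusted p = 0.587).

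MBD2, the methyl-CpG reader of the NuRD complex, was the only member called with both siRNAs in the same direction. It read 9.05 and 9.08 in the control at 10 nM, 8.81 and 8.64 with siRNA 1, 8.55 and 8.62 with siRNA 2, 9.09 and 9.11 in the control at 100 nM, and 9.27 and 9.35 with the PAXIP1-AS1 siRNA. The LOC440173 arrays were all below the control arrays, and the PAXIP1-AS1 arrays were above them. MBD2 fell to 79.2% of control with siRNA 1 (-0.34 ± 0.068, adjusted p = 0.00753) and to 71.8% with siRNA 2 (-0.48 ± 0.068, adjusted p = 0.00122, both by limma). Without siRNA 1 replicate 2 the siRNA 1 difference was -0.25 and no longer called (adjusted p = 0.0502), while the siRNAs then differed from each other (-0.23, adjusted p = 0.0491) as they did not with all arrays (-0.14, interval -0.30 to 0.01). The PAXIP1-AS1 difference of 0.21 (interval 0.05 to 0.37) had an adjusted p of 0.142 by limma, and 0.0395 with dim genes left out. The effects of siRNA 1 and siRNA 2 minus that of the PAXIP1-AS1 siRNA were -0.54 and -0.69 (adjusted p = 0.00758 and 0.00253 by limma).

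Against the PAXIP1-AS1 effect, 4 of 9 members differed for siRNA 1 beside 16.8% of all genes: UHRF2 was higher and DNMT3B, TET2 and MBD2 lower. For siRNA 2, 3 of 9 differed beside 17.2% of all genes: TET1 was higher and UHRF1 and MBD2 lower. The siRNA 1 count fell to 2, DNMT3B and MBD2, without control 10 nM replicate 2, siRNA 1 replicate 1, or any array of the 100 nM groups, since UHRF2 (adjusted p 0.0557, 0.0987 and 0.0849 to 0.112) and TET2 (0.0551, 0.0617 and 0.0554 to 0.0849) then missed the threshold. UHRF2 also missed it without control 10 nM replicate 1 (0.0702) or either siRNA 2 array (0.0519), and TET2 without siRNA 1 replicate 2 (0.073), while TET3 passed it without control 10 nM replicate 1 (-0.30, adjusted p = 0.0339). These differences set a control at another dose beside each siRNA, and the members' control-dose differences lay between -0.11 (UHRF2) and 0.06 (DNMT3A), all with an adjusted p of 1 by limma.

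**Figure D3:**
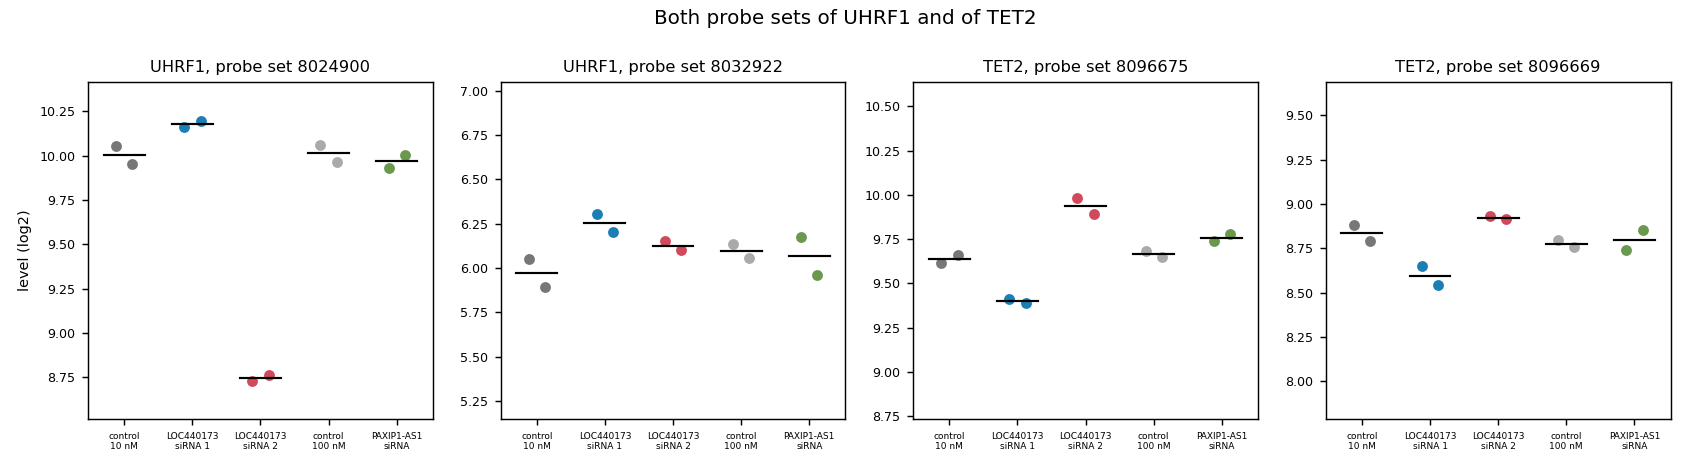
Log2 level on each array for both probe sets of UHRF1 and of TET2, by siRNA group; bars are means of 2 arrays. UHRF1 falls with siRNA 2 on probe set 8024900 and not on 8032922, and both TET2 probe sets are lowest with siRNA 1.

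UHRF1 and TET2 each had a second, dimmer probe set. UHRF1 probe set 8032922 lay between 5.89 and 6.30 on the 10 arrays, against 8.73 to 10.20 for 8024900, and differed by 0.16 with siRNA 2 (adjusted p = 0.336 over every probe set, limma, beside 17.6% called). It thus did not show the fall of the other probe set. The 20 probe sets nearest to it in number belong to chromosome 19 genes on the strand opposite to UHRF1, while those next to 8024900 belong to genes on its own strand. TET2 probe set 8096669 differed by -0.24 with siRNA 1 (adjusted p = 0.0523 over every probe set, limma, beside 16.4% called), and by 0.09 with siRNA 2 (adjusted p = 0.489). Its difference of 0.33 between the siRNAs was called (adjusted p = 0.011, beside 24.0% called), but not without siRNA 1 replicate 2 (0.27, 0.0797) or siRNA 2 replicate 1 (0.32, 0.0507).

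The partners of maintenance methylation, 14 genes listed around UHRF1, DNMT1 and chromatin at the replication fork, included 8 called lower with siRNA 2. Of these 14, 8 fell and 3 rose with siRNA 2, beside 17.4% lower and 12.5% higher among all genes (median -0.24, all genes 0.01). With siRNA 1, 5 rose and 2 fell, beside 12.1% higher and 16.7% lower (median 0.09, all genes 0.05). With the PAXIP1-AS1 siRNA 0 were called by limma, beside 4.62% of all genes. There, 5 had an unadjusted p under 0.05, beside 3357 of 18404 genes. CDCA7, which targets the remodeller HELLS to chromatin, fell by 0.90 on the log2 scale with siRNA 2, and TRIM28, a corepressor scaffold, fell by 0.45. USP7, the deubiquitinase that stabilises DNMT1 and UHRF1, rose by 0.43. CHAF1B, a subunit of chromatin assembly factor 1, fell with both (-0.90 with siRNA 1 and -0.50 with siRNA 2). PCNA, the sliding clamp, was called higher with siRNA 1 (0.31) and lower with siRNA 2 (-0.36), and CDCA7 was called higher with siRNA 1 (0.27). That count with siRNA 1, 7, fell to 4 without control 10 nM replicate 2 or siRNA 1 replicate 1 and to 2 without siRNA 1 replicate 2.

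Of 30 measured genes of S phase and E2F targets, 16 fell and 2 rose with siRNA 2, beside 17.4% lower and 12.5% higher among all genes (median -0.18, all genes 0.01). TK1, thymidine kinase, fell by 1.43, and CCNE1, cyclin E1, fell by 1.40. GINS3 and GINS4, subunits of the replicative helicase, stood at -1.04 and -0.74. With siRNA 1, 10 rose and 7 fell, beside 12.1% and 16.7% of all genes (median 0.08), with MCM7 0.55 higher and GINS2 and CDC45 lower (-0.67 and -0.62). Between the siRNAs, 21 of 30 were called, beside 37.1% of all genes called in either direction (median -0.25, all genes -0.05). Of these, 18 were lower with siRNA 2, among them E2F1 at -0.83, and 3 were higher. With the PAXIP1-AS1 siRNA, 3 of 30 rose, beside 2.86% of all genes, of which MCM7 (0.48) was called under every alternative other than a 1.5-fold minimum, while CCNE2 (0.74) and GINS1 (0.36) were lost and the count fell to 1 without control 100 nM replicate 1 or either PAXIP1-AS1 array. Whether these levels had a part in those of UHRF1 and DNMT1 was not tested.

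**Figure D4:**
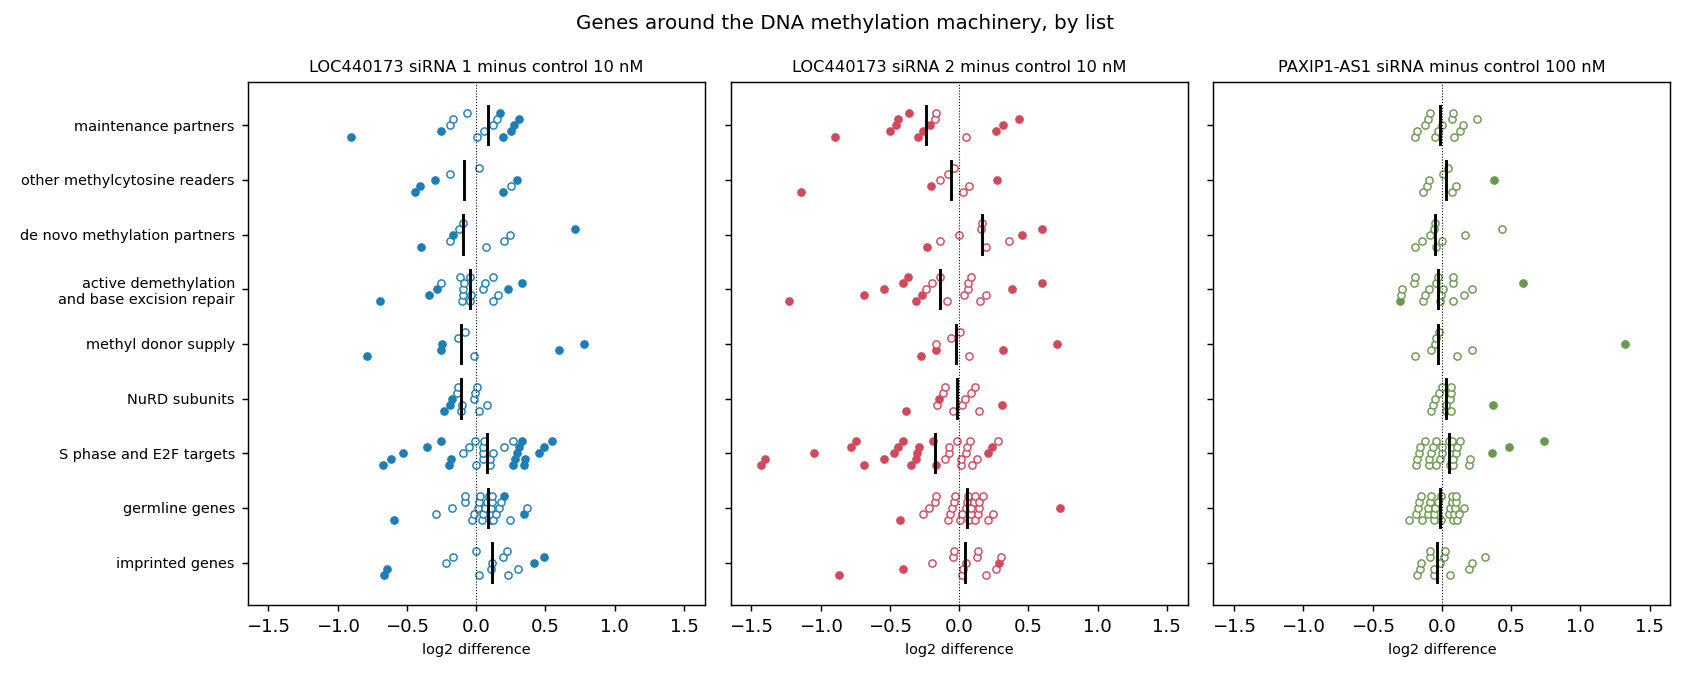
Log2 difference of each gene in 9 lists around the methylation machinery for the 3 silencing comparisons; filled points have an adjusted p under 0.05 and black bars are list medians. The maintenance and S phase lists have medians of -0.24 and -0.18 with siRNA 2, and few points are filled with the PAXIP1-AS1 siRNA.

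Calls among the other MBD genes and the ZBTB genes listed with them, and among subunits of NuRD, are read beside shares of all genes. Those shares were 28.8%, 30.0% and 4.62% with siRNA 1, siRNA 2 and the PAXIP1-AS1 siRNA. NuRD is the complex that MBD2 recruits. Of the 8 listed MBD and ZBTB genes measured, 2 rose and 3 fell with siRNA 1 (median -0.08). With siRNA 2, 1 rose and 2 fell (median -0.06), and 1 rose with the PAXIP1-AS1 siRNA (median 0.03). ZBTB38, a zinc finger protein that binds methylated CpG, fell by 0.41 with siRNA 1 and by 1.14 with siRNA 2, and rose by 0.38 with the PAXIP1-AS1 siRNA. The rise was lost without any single array of the 100 nM groups (adjusted p = 0.0588 to 0.113 by limma). ZBTB33 (Kaiso, -0.44) and MBD3 (-0.30), a NuRD subunit, fell with siRNA 1. The count with siRNA 1 fell from 5 to 3 without control 10 nM replicate 1 or siRNA 1 replicate 2, and that with siRNA 2 from 3 to 1 without control 10 nM replicate 1 or siRNA 2 replicate 2. Of 12 NuRD subunits, 3 fell with siRNA 1 (median -0.11) and 2 fell and 1 rose with siRNA 2 (median -0.01), near or under the shares of all genes, and 1, CDK2AP1 (0.37), rose with the PAXIP1-AS1 siRNA (median 0.03). HDAC1, a deacetylase of the complex, fell with both LOC440173 siRNAs (-0.23 and -0.38). HDAC2, another, was called lower with siRNA 1 (-0.17) and was not called with siRNA 2 (0.02, adjusted p = 0.85 by limma). Without either siRNA 1 array, 1 subunit was called with siRNA 1, and CDK2AP1 was lost without any single array of the 100 nM groups.

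Around the TET enzymes, 19 genes of active demethylation and base excision repair were measured. With siRNA 2, 7 fell and 2 rose, beside 17.4% lower and 12.5% higher among all genes (median -0.14). IDH1, which makes the TET cosubstrate 2-oxoglutarate, fell by 1.23 with siRNA 2 and by 0.69 with siRNA 1. OGT, the glycosyltransferase that binds TET proteins, fell by 0.69 and the uracil glycosylase UNG by 0.54 with siRNA 2, while CXXC5, a CXXC zinc finger protein, rose by 0.60. With siRNA 1, 2 rose and 3 fell, beside 28.8% of all genes called (median -0.05), or 3 in all without either siRNA 1 array. With the PAXIP1-AS1 siRNA (median -0.03, 4.62% of all genes called), TDG, the glycosylase that excises oxidised methylcytosine, rose by 0.58 and LIG3, a DNA ligase, fell by 0.30. TDG was lost without control 100 nM replicate 1 (0.57, adjusted p = 0.0599) or PAXIP1-AS1 replicate 1 (0.50, 0.0539), and LIG3 without any array of the 100 nM groups (0.14 to 0.188) or either siRNA 1 array (0.0639).

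The de novo partners numbered 9, of which 1 rose and 2 fell with siRNA 1 (median -0.09), 2 rose and 1 fell with siRNA 2 (median 0.16) and 0 were called with the PAXIP1-AS1 siRNA by limma (median -0.05; 3 at an unadjusted p under 0.05). Among all genes 28.8%, 30.0% and 4.62% were called in these comparisons, so the counts with the LOC440173 siRNAs were near the background. With the PAXIP1-AS1 siRNA, 3357 of 18404 genes had an unadjusted p under 0.05. NSD1, a histone H3 lysine 36 methyltransferase, fell by 0.40 with siRNA 1, and QSER1, which shields CpG islands from DNMT3 enzymes, rose by 0.46 with siRNA 2. With siRNA 1 and siRNA 2, DPPA3 was called higher (0.71 and 0.60) and SETDB1 lower (-0.17 and -0.23). Only 1 was called with siRNA 1 without control 10 nM replicate 2 or siRNA 1 replicate 1. Of 8 measured genes of methyl donor supply, 2 rose and 3 fell with siRNA 1 (median -0.11), 2 rose and 2 fell with siRNA 2 (median -0.03), and 1 rose with the PAXIP1-AS1 siRNA (median -0.03), beside the same shares of all genes. SHMT2, the mitochondrial serine hydroxymethyltransferase, rose in all 3 (0.78, 0.71 and 1.32), and MTR, methionine synthase, fell by 0.79 with siRNA 1. The siRNA 1 count fell to 3 without siRNA 1 replicate 1, and the siRNA 2 count to 1 without siRNA 2 replicate 2 and to 2 without control 10 nM replicate 1, siRNA 2 replicate 1, or any siRNA 1 or PAXIP1-AS1 array.

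Germline genes whose promoters DNA methylation keeps silent in somatic cells, and imprinted genes, are read beside 28.8% of all genes called with siRNA 1, 30.0% with siRNA 2 and 4.62% with the PAXIP1-AS1 siRNA. In the last of these comparisons, 3357 of 18404 genes had an unadjusted p under 0.05. Of 28 measured germline genes, 2 rose and 1 fell with siRNA 1 (median 0.08), 1 rose and 1 fell with siRNA 2 (median 0.06), and 0 were called with the PAXIP1-AS1 siRNA by limma (median -0.02; 0 at an unadjusted p under 0.05). TAF7L rose by 0.73 with siRNA 2, and TEX15 fell with both siRNAs (-0.59 and -0.42). The siRNA 1 count was 5 without control 10 nM replicate 1 and 1 without control 10 nM replicate 2. Of 14 measured imprinted genes, 2 rose and 2 fell with siRNA 1, near the share of all genes (median 0.11), 1 rose and 2 fell with siRNA 2 (median 0.04), and 0 were called with the PAXIP1-AS1 siRNA by limma (median -0.04; 4 at an unadjusted p under 0.05). GRB10, a signalling adaptor, fell by 0.66 and 0.87 and PLAGL1, a zinc finger factor, by 0.65 and 0.40 with siRNA 1 and siRNA 2. DIRAS3 rose with both (0.49 and 0.29, adjusted p = 0.00515 and 0.0472 by limma), and NAP1L5 rose with siRNA 1 (0.42, adjusted p = 0.0283 by limma). Without control 10 nM replicate 1, 8 were called with siRNA 1. DNA methylation itself was not measured on these arrays.

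Genes with the most similar profiles were sought for the 4 members whose group means spanned at least 0.5, among 4202 genes with as wide a span. Pearson's r over the 10 arrays is a description, since the arrays fall in 5 groups and share their processing. UHRF1 was most like MYADM, CASP2 and EMC8 (r = 0.995, 0.995 and 0.994) and most opposite to SOBP, SYT7 and FAT4. DNMT3B was most like PYCR1, RBM3 and SLAIN1 (r = 0.992, 0.991 and 0.990), and most opposite to TTC21A, MOSPD2 and CCDC28A. TET2 was most like LGALSL, RAPGEF6 and PIK3C2B (r = 0.991, 0.988 and 0.983) and most opposite to RPL28, NASP and NOC4L. MBD2 was most like TFPI2, TMOD1 and DPYSL2 (r = 0.984, 0.983 and 0.982) and most opposite to PCDH10, PYGL and FDX2.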

How the data were processed

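RNA of 10 HEK-293 samples was measured on Affymetrix arrays. The deposited values are log2 levels of 32321 probe sets, made with RMA and limma per the submitters' processing notes, with no versions. For the array definition file, genome build and filters: not given in the sources used here. Scanner intensities were not used, so the level above background is unknown, and the number of arrays limits the precision.

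Groups came from the labels. The platform annotation gave 1 symbol for 19158 probe sets, several for 1388 and none listed for 11775. The probe set with the highest mean stood for each of 18404 genes. Symbols were compared with a RefSeq table (GRCh38.p14), which held the IDs of 19128 of these probe sets and changed 0 symbols. All arrays entered a limma fit (version 3.58.1, R 4.3.3) with a mean per group and eBayes, with 5 residual and 2.87 prior degrees of freedom. Two-sided p-values were Benjamini-Hochberg adjusted across the genes (threshold 0.05), and second probe sets were tested over every probe set. The code was tested on simulated data. The members and lists were chosen with earlier results of these data known. From each list, at most 4 called genes per comparison are named, by smallest p, some with their value in another comparison. Listed genes without a probe set of their own were not analysed here. Promoters were matched by symbol, for 9 of 9 genes with 20 windows. Alternatives were each array left out, a repeated quantile normalization, averaged probe sets, probe sets as separate features, removal of dim genes (mean under the median gene), a fit of the compared groups alone, an intensity trend with a robust prior, array weights, a replicate block and a 1.5-fold minimum.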

Additional observations from a re-analysis of the deposited data

Results flagged for a closer look

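Differences between the effects of 2 siRNAs were tested for each member in the limma fit. Among all genes, 37.1% passed the threshold between siRNA 2 and siRNA 1. Against the PAXIP1-AS1 effect, 16.8% of all genes did for siRNA 1 and 17.2% for siRNA 2. Of the members' differences, 13 passed the threshold. Between siRNA 2 and siRNA 1, they were UHRF1 (-1.43, adjusted p = 3.15e-06), UHRF2 (-0.44, 0.000976), DNMT1 (-0.22, 0.00654), DNMT3B (0.46, 0.000322), TET1 (0.34, 0.00158) and TET2 (0.54, 0.000115). TET2 is the member called in opposite directions against the control with the 2 siRNAs. Both of these TET2 calls were lost in fits of the 2 groups alone (adjusted p = 0.0623 and 0.0626 by limma). The dimmer TET2 probe set was called with neither siRNA (0.0523 and 0.489 over every probe set, limma). Between the siRNA 1 effect and the PAXIP1-AS1 effect, the differences past the threshold were UHRF2 (0.35, adjusted p = 0.0356), DNMT3B (-0.52, 0.00373), TET2 (-0.33, 0.0204) and MBD2 (-0.54, 0.00758). Between the siRNA 2 effect and the PAXIP1-AS1 effect, they were UHRF1 (-1.21, adjusted p = 0.000146), TET1 (0.40, 0.01) and MBD2 (-0.69, 0.00253).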

How the results depend on the processing

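Across 1421 member values under alternatives, 1341 kept their side of the threshold, 60 lost a call and 20 gained one. Among them, 0 called values and 29 uncalled values changed sign. UHRF1, TET1 and MBD2 with siRNA 2 and UHRF2 and DNMT3B with siRNA 1 kept their calls under every alternative other than the 1.5-fold minimum, which UHRF1 also passed. Leaving out single arrays gave 2 to 6 members called with siRNA 1 and 5 to 5 with siRNA 2, 6 to 7 between the siRNAs, and 2 to 4 and 3 to 3 for their differences from the PAXIP1-AS1 effect. In fits of the compared groups alone, 3 members were called with siRNA 1 and 3 with siRNA 2. Leaving out dim genes gave 1 with the PAXIP1-AS1 siRNA and 5 for siRNA 2 against its effect, as did the trend with a robust prior (5). The 1.5-fold minimum left 0 with siRNA 1, 1 with siRNA 2, 1 between the siRNAs and 0 for siRNA 1 against the PAXIP1-AS1 effect. Leaving out dim genes meant fewer genes tested, and fits of the compared groups alone used fewer samples. What caused each of these changes was not tested.

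The replicate block gave 5, 5, 6, 0 and 0 members for siRNA 1, siRNA 2, siRNA 2 against siRNA 1, the PAXIP1-AS1 siRNA and the control doses, and 4 and 4 for the differences from the PAXIP1-AS1 effect. It gained DNMT1 in the last (adjusted p = 0.0494), UHRF1 probe set 8032922 with siRNA 1 (0.0188) and TET2 probe set 8096669 with siRNA 1 (0.0489), and changed no other member's call. Replicate differences correlated at 0.07 to 0.09 between siRNA 1 and the other groups and at 0.29 to 0.53 among the others, so same-numbered arrays of those 4 groups deviated together and those of siRNA 1 hardly did. The labels name no shared culture or day, and the number was not taken as a pairing.

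Over all genes, counts ranged from 3294 to 6739 with siRNA 1, 2788 to 6329 with siRNA 2, 5229 to 7777 between the siRNAs and 110 to 1879 with the PAXIP1-AS1 siRNA, outside the 1.5-fold minimum (1044, 1220, 1944 and 112). For the differences from the PAXIP1-AS1 effect they were 1695 to 4291 and 1917 to 3990 (1072 and 1153). Named genes of the lists lost a call in 392 of 2776 values, 91 of them under the 1.5-fold minimum, and 0 were reversed. With 2 arrays a group, small differences may be missed.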
